A study of Homo sapiens with 6 samples.

Results

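The 10 genes described here are IL6R, IL6ST, JAK1, JAK2, JAK3, STAT3, SOCS1, SOCS3, PIM1 and PIM2. All but JAK3, the partner kinase of the gamma chain IL2RG, carry the interleukin 6 signal from the cell surface to the nucleus and back through its inhibitors and kinases. The 10 genes were chosen by name and matched by Ensembl identifier. All 10 were found among the 61498 genes of the series and passed the low-count filter that left 20081 genes for testing. RNA was measured in 3 human lines, each grown without treatment and sequenced as 2 libraries of ribosomal RNA-depleted total RNA. RPMI-8226-R is the bortezomib-resistant derivative of RPMI-8226, a plasma cell line from multiple myeloma, and bortezomib is a proteasome inhibitor used against that disease. The third line is labelled NCI-BL2171, and all 3 lines carry the cell type label of B lymphocytes. How resistance was selected, whether RPMI-8226-R is 1 clone and whether it was kept in bortezomib are not stated in the labels. Separate cultures behind the libraries are not stated either, and every p-value rests on a spread that may be technical alone.

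Interleukin 6 binds its receptor chain IL6R, and the complex engages IL6ST (gp130), the chain shared by the whole cytokine family, whose tail holds JAK kinases. The kinases phosphorylate STAT3, which enters the nucleus and switches on genes that include its own inhibitor SOCS3 and the PIM kinases. In the bone marrow this route is a well-known growth and survival signal of myeloma cells, supplied by stromal cells or by the myeloma cells themselves, and PIM2 is a kinase on which many myeloma lines depend. What follows is transcript abundance, and phosphorylation of STAT3 was not measured.

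The libraries held 23952370 to 29052199 estimated reads. Plasma cell markers were present in both RPMI lines, with 8 of 9 at 1 TPM or more and summed levels of 4477 to 4611 TPM in RPMI-8226-R and 3116 to 3252 TPM in RPMI-8226. The libraries labelled NCI-BL2171 went against their label: MS4A1, PAX5 and BLK had no read, the 8 B cell markers summed to 5.07 to 5.08 TPM, and 5 of 9 plasma cell markers, among them IRF4 and JCHAIN, had no read. The 11 erythroid markers summed to 171 to 187 TPM in RPMI-8226-R, 61.4 to 63.8 TPM in RPMI-8226 and 61423 to 64213 TPM in the libraries labelled NCI-BL2171, where all 11 were at 1 TPM or more. Of these 11, only EPOR, the erythropoietin receptor, was lowest in the libraries labelled NCI-BL2171. Its mean was 2.553 TPM there, against 12.356 TPM in RPMI-8226-R and 8.606 TPM in RPMI-8226. The libraries labelled NCI-BL2171 are therefore called by their label throughout, and no comparison with them is one with B cells. B cell markers summed to 179 to 186 TPM in RPMI-8226-R, where MS4A1 and CD22 had no read, and to 5467 to 5626 TPM in RPMI-8226. CD74, the invariant chain of MHC class II, made up most of these sums, at 134 and 140 TPM in RPMI-8226-R and 5440 and 5600 TPM in RPMI-8226. The other 7 markers summed to 45.4 and 46.2 TPM in RPMI-8226-R and to 26.3 and 26.2 TPM in RPMI-8226. In bulk RNA, fewer cells with a transcript and less of it per cell cannot be told apart.

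In RPMI-8226-R against RPMI-8226 the receptor chains were higher and most of the chain below them was lower. IL6R and IL6ST rose, JAK1, JAK3, STAT3, SOCS1, SOCS3, PIM1 and PIM2 fell, and JAK2 did not pass the test. That is 9 of 10 members past an adjusted p of 0.05 in edgeR's quasi-likelihood test, against a background of 65.6% of all genes tested, of which 28.5% were higher and 37.2% lower. The sizes ranged widely. JAK3, SOCS1, SOCS3 and PIM1 fell at least 4-fold, which 12.3% of all genes tested did, whereas the other 5 called members differed by 1.53-fold to 2.50-fold. The median log2 fold change of the members was -0.72, beside -0.12 over all genes tested.

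**Figure D1:**
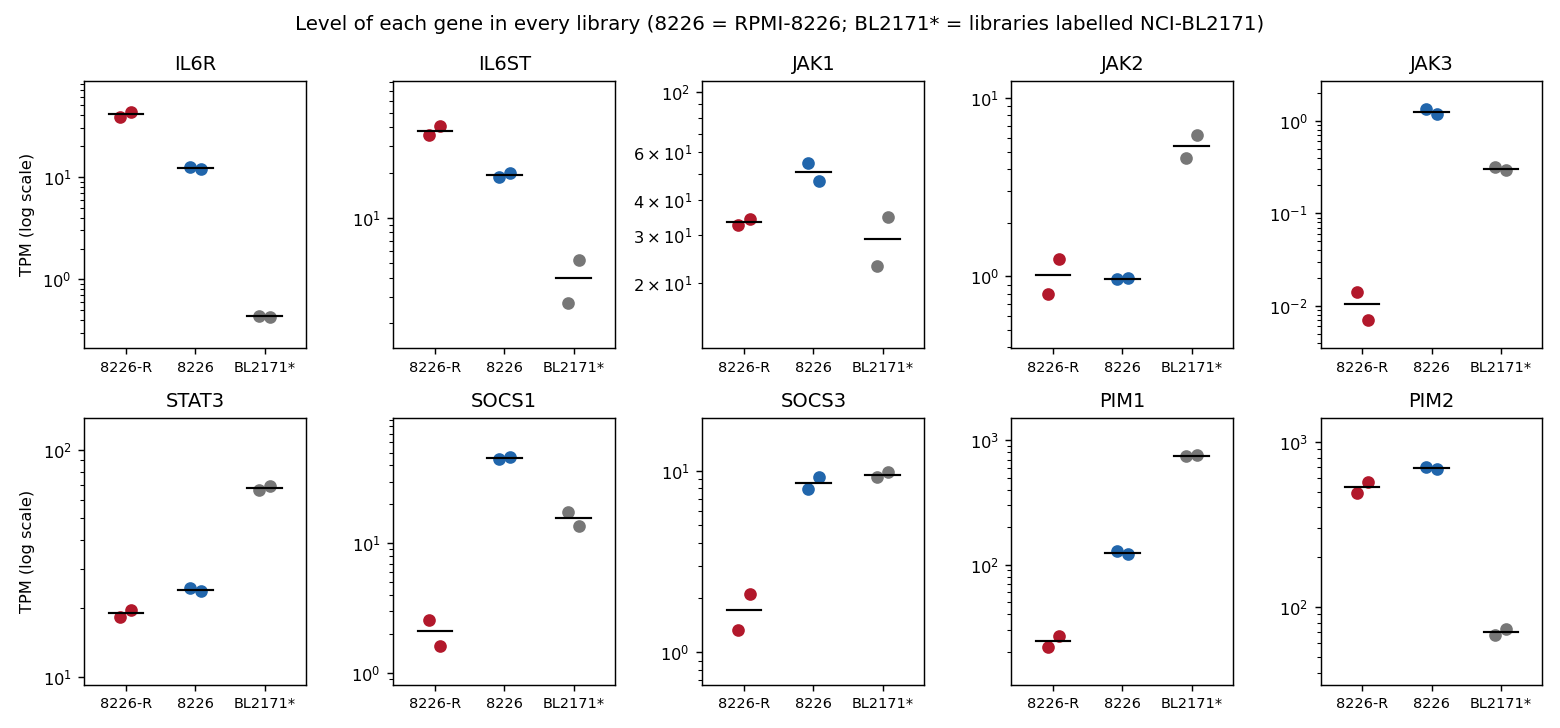
Level of each of the 10 genes in TPM (log axis) in the 2 libraries of RPMI-8226-R (red), RPMI-8226 (blue) and those labelled NCI-BL2171 (grey), with a bar at the mean. IL6R and IL6ST stand highest in RPMI-8226-R, SOCS1 and JAK3 highest in RPMI-8226, and PIM1, STAT3 and JAK2 highest in the libraries labelled NCI-BL2171.

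The promoter sequences of the 4 genes that fell at least 4-fold are shown because regulators of transcription act there. Each is the 250 bases before a start that RefSeq gives the gene on GRCh38.p14, 5′ to 3′ on the gene's own strand: JAK3 at chr19:17847983-17848232 (minus strand), SOCS1 at chr16:11256205-11256454 (minus), SOCS3 at chr17:78360926-78361175 (minus) and PIM1 at chr6:37169902-37170151 (plus). All 4 starts differ from the GENCODE 29 starts used for the gene positions below. The JAK3 stretch reaches 89 bases into the GENCODE gene, and the SOCS3 start lies 848 bases upstream of the GENCODE one. The SOCS1 and PIM1 starts lie 4 and 51 bases upstream of theirs. Capitals mark matches on either strand to TTCNNNGAA or TTCNNGAA, the spaced pairs that STAT dimers bind, to the core of the interferon-stimulated response element, or to the NF-kB consensus.
JAK3: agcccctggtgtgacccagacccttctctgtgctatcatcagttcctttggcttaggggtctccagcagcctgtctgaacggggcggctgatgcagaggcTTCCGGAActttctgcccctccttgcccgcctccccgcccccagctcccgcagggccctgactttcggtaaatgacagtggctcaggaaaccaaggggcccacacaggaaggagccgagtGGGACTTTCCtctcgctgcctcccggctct
SOCS1: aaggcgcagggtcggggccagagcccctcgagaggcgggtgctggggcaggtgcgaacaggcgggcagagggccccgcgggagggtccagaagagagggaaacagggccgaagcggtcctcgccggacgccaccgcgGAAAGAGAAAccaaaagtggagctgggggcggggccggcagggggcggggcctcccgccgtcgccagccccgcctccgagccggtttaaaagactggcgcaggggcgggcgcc
SOCS3: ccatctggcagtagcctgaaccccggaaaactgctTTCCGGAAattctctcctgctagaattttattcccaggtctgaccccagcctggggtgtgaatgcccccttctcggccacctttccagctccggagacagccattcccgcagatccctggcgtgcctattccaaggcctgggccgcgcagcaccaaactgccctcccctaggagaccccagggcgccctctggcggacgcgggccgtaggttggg
PIM1: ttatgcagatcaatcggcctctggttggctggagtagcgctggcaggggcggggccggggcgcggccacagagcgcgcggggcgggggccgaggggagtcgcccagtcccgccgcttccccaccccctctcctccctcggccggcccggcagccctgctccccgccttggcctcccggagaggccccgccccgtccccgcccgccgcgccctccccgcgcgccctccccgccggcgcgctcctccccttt

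Counted from the start, the JAK3 window held TTCNNGAA from position -150 and an NF-kB match, GGGACTTTCC, from position -30. SOCS1 held the response element core once, from position -113. SOCS3 has 2 RefSeq windows, of which the one printed held TTCNNGAA from position -215. The other, whose start lies 410 bases downstream of the GENCODE 29 start and thus inside that gene, had no match. Neither window covers the bases just before the GENCODE 29 start of SOCS3, which were not searched. The PIM1 window had no match to any of the 4 motifs. Among the other members, IL6R, JAK1 and STAT3 each had TTCNNGAA in a window, and TTCNNNGAA was in no window of the 10 genes. Over all 35116 RefSeq windows of 300 bases, 7.74% held TTCNNGAA, 7.66% TTCNNNGAA, 3.57% the response element core and 5.91% the NF-kB consensus. These matches describe letters in a window and not binding, which was not measured.

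The ligand itself was nearly absent. IL6 had no read in either RPMI-8226-R library, against 7 and 2 reads in RPMI-8226 and 22 and 30 reads in the libraries labelled NCI-BL2171. A count of 0 allows a level of up to 3 reads per library. Against that floor the mean of IL6 was at least 1.58-fold lower in RPMI-8226-R than in RPMI-8226 (edgeR adjusted p = 0.00940). That bound rests on the 7 reads of RPMI-8226 replicate 1, as replicate 2, with 2 reads, lay below the floor itself. The call was lost without RPMI-8226 replicate 1 (adjusted p = 0.112) and with limma on log2(TPM + 1) (adjusted p = 0.400). Of 7 ligands of the IL6 family tested, 0 rose, 4 fell and 3 did not pass, which is 57.1% called against 65.6% of all genes tested. EBI3, the shared subunit of interleukins 27 and 35, had 0.273 and 0.894 TPM in RPMI-8226-R, against 96.4 and 93.7 TPM in RPMI-8226, a 350-fold fall (log2 fold change -8.45 ± 0.19, edgeR adjusted p = 5.04e-19). IL27, its partner subunit, had no read in RPMI-8226-R, against 19 and 17 reads in RPMI-8226, and was at least 6.40-fold lower. For EBI3, both RPMI-8226 libraries stood far above every other library. The median log2 fold change of the 7 ligands was -1.96 as fitted and -0.66 with the genes lacking reads set at their bounds.

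IL6R, the ligand-binding chain (chr1:154405193-154469450, plus strand, GENCODE 29 on GRCh38 as for all gene positions here), had 38.9 and 43.2 TPM in RPMI-8226-R, against 12.5 and 12.1 TPM in RPMI-8226 and 0.442 and 0.426 TPM in the libraries labelled NCI-BL2171. The 3 lines did not overlap, and RPMI-8226-R was highest. On the scale of normalised counts it averaged 193 ± 4.47 CPM in RPMI-8226-R and 77.1 ± 0.534 CPM in RPMI-8226 (SD, n = 2 each), a log2 fold change of 1.32 with an SE of 0.07 (edgeR adjusted p = 3.24e-13), or 2.50-fold higher. Log2 fold changes below carry their SE after the ± sign. An antisense gene, IL6R-AS1, had at most 25 reads in any library. PSMD8P1, a pseudogene within IL6R on the opposite strand, had 192 and 161 reads in RPMI-8226-R, 132 and 119 in RPMI-8226 and 426 and 346 in the libraries labelled NCI-BL2171, where IL6R itself had 73 and 62 reads. Per length, IL6R was the second most abundant of the 10 genes in RPMI-8226-R, after PIM2, and the seventh in RPMI-8226.

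IL6ST, the signalling chain gp130 (chr5:55935095-55994993, minus strand), had 35.6 and 40.7 TPM in RPMI-8226-R, against 18.6 and 20.0 TPM in RPMI-8226 and 2.73 and 5.23 TPM in the libraries labelled NCI-BL2171. RPMI-8226-R was again highest in both libraries. The normalised counts were 219 ± 14.9 CPM in RPMI-8226-R and 127 ± 3.86 CPM in RPMI-8226 (SD, n = 2 each), a log2 change of 0.78 ± 0.07 (edgeR adjusted p = 2.00e-09), or 1.72-fold. The 2 libraries labelled NCI-BL2171 had alike read counts, 21.2 ± 0.989 CPM, but the length the deposited tables give IL6ST there differed 1.78-fold, at 8415 and 4729 bases. Because IL6R rose more than IL6ST, the ratio of IL6R to IL6ST in TPM was 1.09 and 1.06 in RPMI-8226-R, 0.671 and 0.604 in RPMI-8226 and 0.162 and 0.0815 in the libraries labelled NCI-BL2171. Per length, the ligand-binding chain exceeded the shared chain in both RPMI-8226-R libraries and in none of the other 4.

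Other cytokine receptor chains moved both ways. Of 21 tested, 4 rose, 12 fell and 5 did not pass in RPMI-8226-R against RPMI-8226, where 28.5% of all genes tested rose and 37.2% fell. With limma on log2(TPM + 1) 5 rose and 6 fell, so the excess of falls depends on the scale. CSF2RB, the shared beta chain for interleukins 3 and 5 and GM-CSF, had 16.3 and 17.6 TPM in RPMI-8226-R, against 8.07 and 7.61 TPM in RPMI-8226, a 1.65-fold rise. IL21R, the receptor of interleukin 21, rose 1.62-fold. IFNAR2, a chain of the type I interferon receptor, was 1.63-fold higher, but with an offset for gene length its difference was 0.05 on the log2 scale (edgeR adjusted p = 0.747). IL2RG, the gamma chain shared by receptors that signal through JAK3, had 0.941 and 0.854 TPM in RPMI-8226-R, against 41.6 and 40.4 TPM in RPMI-8226 and 13.6 and 11.8 TPM in the libraries labelled NCI-BL2171. It fell 63.2-fold (log2 fold change -5.98 ± 0.13, edgeR adjusted p = 5.59e-19). IL2RA, the high-affinity chain for interleukin 2, had no read in RPMI-8226-R, against 33 and 26 reads in RPMI-8226, and was at least 10.5-fold lower. CSF3R had no read in RPMI-8226-R and 3 and 5 reads in RPMI-8226, and its call was lost on either TPM scale. Of the proteases that shed IL6R and their regulators, ADAM17 rose 1.24-fold. RHBDF1 fell 5.01-fold on few reads, 7 and 9 in RPMI-8226-R against 42 and 34 in RPMI-8226. RHBDF2, which was more abundant, had 28.5 and 37.0 TPM in RPMI-8226-R, against 27.0 and 29.6 TPM in RPMI-8226, and did not pass. ADAM10 was 1.13-fold lower, a call lost under 9 alternatives, on both TPM scales with the opposite sign.

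JAK1, the kinase most closely tied to gp130 (chr1:64833229-64966504, minus strand), had 32.6 and 34.2 TPM in RPMI-8226-R, against 54.8 and 47.1 TPM in RPMI-8226 and 23.0 and 34.7 TPM in the libraries labelled NCI-BL2171. RPMI-8226 was highest, and the other two lines overlapped in TPM. The normalised counts were 74.4 ± 0.403 CPM in RPMI-8226-R and 119 ± 3.38 CPM in RPMI-8226 (SD, n = 2 each), a log2 change of -0.67 ± 0.07 (edgeR adjusted p = 3.13e-08), or 1.59-fold lower. RAVER2 overlaps JAK1 on the opposite strand with 295 to 760 reads per library, and whether the reads were counted by strand is not given in the sources used here.

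JAK2, the kinase of the erythropoietin and thrombopoietin receptors (chr9:4984390-5128183, plus strand), had 0.793 and 1.24 TPM in RPMI-8226-R, against 0.968 and 0.978 TPM in RPMI-8226 and 4.58 and 6.22 TPM in the libraries labelled NCI-BL2171. The RPMI lines overlapped. Their difference was -0.16 ± 0.18 on the log2 scale and did not pass (edgeR adjusted p = 0.457), with values from -0.38 to 0.04 over the alternatives tried. JAK2 had 97 and 140 reads in RPMI-8226-R and 135 and 112 in RPMI-8226, while 2 pseudogenes inside it, TCF3P1 on the same strand and PDSS1P1 on the opposite one, had 64 to 92 and 17 to 82 reads in those libraries.

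JAK3, the partner kinase of the gamma chain IL2RG (chr19:17824780-17848071, minus strand), had 2 and 1 reads in RPMI-8226-R, against 191 and 189 reads in RPMI-8226 and 45 and 32 reads in the libraries labelled NCI-BL2171. In TPM these were 0.014 and 0.007 in RPMI-8226-R, 1.34 and 1.17 in RPMI-8226 and 0.313 and 0.296 in the libraries labelled NCI-BL2171. With so few reads the ratio of counts is the firmer measure: RPMI-8226 had 135 times the JAK3 of RPMI-8226-R (95% interval 46.0 to 660, counting error only; edgeR adjusted p = 1.09e-11). JAK3 and IL2RG, which work as a pair, were thus both close to silent in RPMI-8226-R. Most of the JAK transcript per length was TYK2 in every line, at 75.9% ± 1.85 of the 4 kinases' summed TPM in RPMI-8226-R, 74.1% ± 1.76 in RPMI-8226 and 77.2% ± 3.71 in the libraries labelled NCI-BL2171 (SD, n = 2 each). That share rests on deposited lengths of 812 to 992 bases for TYK2, against 1914 to 2786 for JAK1. In normalised counts the 2 genes were closer. TYK2 and JAK1 averaged 88.6 and 74.4 CPM in RPMI-8226-R and 131 and 119 CPM in RPMI-8226. In the libraries labelled NCI-BL2171 they averaged 95.2 and 67.6 CPM. TYK2 fell 1.48-fold in RPMI-8226-R against RPMI-8226 (edgeR adjusted p = 7.75e-07), close to the fall of JAK1.

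STAT3 (chr17:42313324-42388568, minus strand) had 18.4 and 19.6 TPM in RPMI-8226-R, against 24.5 and 23.8 TPM in RPMI-8226 and 66.4 and 69.4 TPM in the libraries labelled NCI-BL2171. The lines did not overlap. Normalised counts were 62.8 ± 0.184 CPM in RPMI-8226-R and 96.1 ± 1.72 CPM in RPMI-8226 (SD, n = 2 each), a log2 change of -0.61 ± 0.07 (edgeR adjusted p = 4.31e-08), or 1.53-fold lower. It was the smallest change among the members that passed. On the log2(TPM + 1) scale the difference was -0.33 and still passed.

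Other STAT genes also differed. STAT6, the factor of interleukin 4 and 13 signalling, had 69.7 and 97.4 TPM in RPMI-8226-R, against 27.0 and 23.9 TPM in RPMI-8226, and rose 2.43-fold (log2 fold change 1.28 ± 0.09, edgeR adjusted p = 4.88e-11). Both RPMI-8226-R libraries were above both RPMI-8226 libraries, and STAT6 had 10.1 and 16.2 TPM in the libraries labelled NCI-BL2171. STAT4, which serves interleukin 12, rose 1.91-fold. STAT5A was 1.51-fold lower and STAT5B 1.15-fold higher, but both calls were lost with the length offset and on both TPM scales, and that of STAT5B was lost also without RPMI-8226-R replicate 2 or RPMI-8226 replicate 1.

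**Figure D2:**
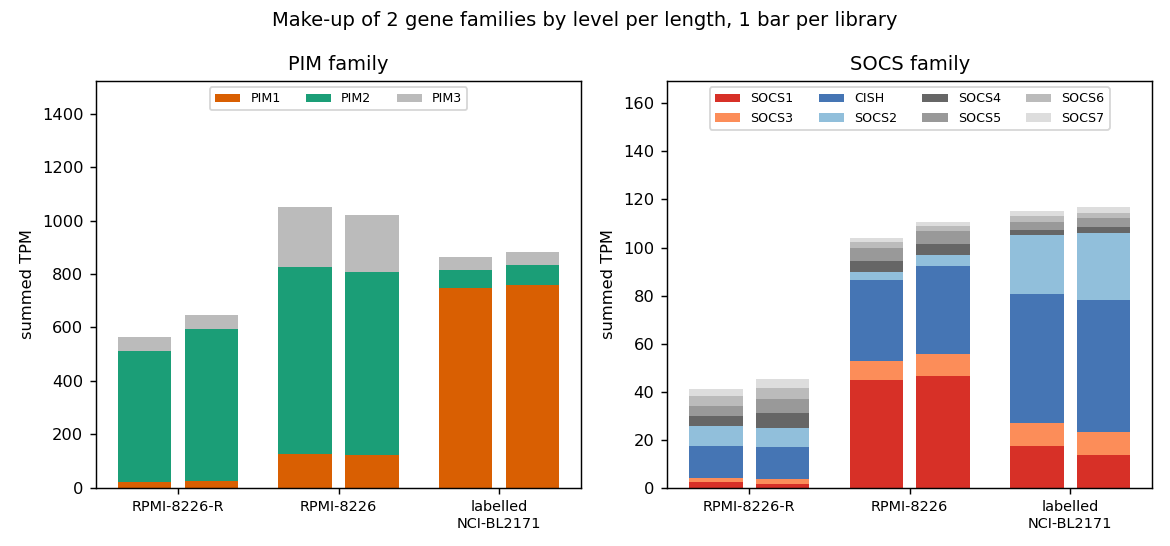
Summed TPM of the PIM and SOCS families (y axis, linear) with 1 stacked bar per library. PIM2 makes up most of the PIM bars in both RPMI lines and PIM1 most of those labelled NCI-BL2171, and the SOCS bars of RPMI-8226-R, at 41.2 and 45.4 TPM, are the lowest.

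SOCS1, an inhibitor that binds JAK kinases (chr16:11254405-11256200, minus strand), had 2.58 and 1.63 TPM in RPMI-8226-R, against 44.7 and 46.5 TPM in RPMI-8226 and 17.6 and 13.6 TPM in the libraries labelled NCI-BL2171. RPMI-8226-R was lowest by a wide margin, with 78 and 53 reads against 1900 and 1944 in RPMI-8226. The log2 fold change was -4.97 ± 0.20 (edgeR adjusted p = 1.33e-09), or 31.3-fold lower. SOCS1 lies opposite RMI2, whose 2254 and 2265 reads in RPMI-8226-R and 4524 and 4545 reads in RPMI-8226 give a log2 fold change of -1.10. Of the 6 nearest tested protein-coding neighbours of SOCS1, 0 rose and 5 fell, with log2 fold changes of -0.43 to -2.76, each smaller than that of SOCS1; 37.2% of all genes tested fell.

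SOCS3, the feedback inhibitor that docks on gp130 (chr17:78356778-78360077, minus strand), had 1.33 and 2.09 TPM in RPMI-8226-R, against 7.96 and 9.24 TPM in RPMI-8226 and 9.23 and 9.77 TPM in the libraries labelled NCI-BL2171. RPMI-8226-R was below both other lines, which overlapped. Reads were 93 and 148 in RPMI-8226-R and 698 and 794 in RPMI-8226, a log2 change of -2.73 ± 0.15 (edgeR adjusted p = 5.04e-12), or 6.65-fold lower. Of its 6 neighbours 0 rose and 5 fell, beside the same 37.2% of all genes. Among them was BIRC5, a survivin gene counted below as a STAT3 target. The fitted fall of DNAH17, a log2 fold change of -3.25, was larger than that of SOCS3 but rests on few reads. The DNAH17 mean in RPMI-8226-R was 0.964 times the level of 3 counts in a library labelled NCI-BL2171.

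Both genes lost weight within their family. SOCS1 held 4.92% ± 1.90 of the SOCS family's TPM in RPMI-8226-R and 42.5% ± 0.573 in RPMI-8226, and SOCS3 held 3.90% ± 0.974 in RPMI-8226-R and 8.01% ± 0.508 in RPMI-8226 (SD, n = 2 each).

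Other inhibitors and phosphatases moved both ways. Of 16 tested, 7 rose, 7 fell and 2 did not pass (28.5% of all genes tested rose and 37.2% fell), with a median log2 fold change of 0.11 that became -0.11 with the length offset. With limma on either TPM scale 7 rose and 2 fell. CISH, a STAT5-induced SOCS protein, had 13.3 and 13.1 TPM in RPMI-8226-R, against 33.8 and 36.6 TPM in RPMI-8226, and fell 3.39-fold. PTPN6, the phosphatase SHP-1, fell 1.79-fold, and PIAS3, an inhibitor of STAT3, was 1.57-fold lower, a call lost on both TPM scales. SOCS6 and SOCS7 rose 1.72-fold and 1.60-fold. PTPRC, the CD45 phosphatase, had 1.19 and 1.78 TPM in RPMI-8226-R, against 0.109 and 0.112 TPM in RPMI-8226, and rose 4.09-fold (log2 fold change 2.03 ± 0.33, edgeR adjusted p = 1.49e-05). Its reads were few, 65 and 58 in RPMI-8226-R and 14 and 14 in RPMI-8226. The TPM differ more than the fitted fold, with deposited lengths of 2506 and 1548 bases in RPMI-8226-R and 4753 bases in RPMI-8226.

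PIM1 (chr6:37170203-37175426, plus strand), a STAT-induced serine/threonine kinase that promotes survival, had 21.6 and 26.7 TPM in RPMI-8226-R, against 128 and 123 TPM in RPMI-8226 and 747 and 761 TPM in the libraries labelled NCI-BL2171. The 3 lines stood apart in one order, with RPMI-8226-R lowest. Normalised counts were 58.3 ± 5.39 CPM in RPMI-8226-R and 401 ± 0.835 CPM in RPMI-8226 (SD, n = 2 each), a log2 change of -2.78 ± 0.07 (edgeR adjusted p = 5.60e-18), or 6.87-fold lower. PIM3, the third kinase of the family, had 51.4 and 52.1 TPM in RPMI-8226-R, against 223 and 214 TPM in RPMI-8226, and fell 5.73-fold (log2 fold change -2.52 ± 0.07, edgeR adjusted p = 1.02e-17).

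PIM2 (chrX:48913182-48919024, minus strand) was the most abundant member in both RPMI lines. It had 490 and 569 TPM in RPMI-8226-R, against 700 and 684 TPM in RPMI-8226 and 67.4 and 73.3 TPM in the libraries labelled NCI-BL2171. The log2 fold change in RPMI-8226-R against RPMI-8226 was -0.77 ± 0.06 (edgeR adjusted p = 5.12e-10), or 1.70-fold lower, and -0.39 on the log2(TPM + 1) scale, where it also passed. Because PIM1 and PIM3 fell more, PIM2 made up a larger part of the family in the resistant line: 87.4% ± 0.580 of PIM TPM in RPMI-8226-R, 66.8% ± 0.315 in RPMI-8226 and 8.05% ± 0.357 in the libraries labelled NCI-BL2171 (SD, n = 2 each). PIM1 made up 3.98% ± 0.190 in RPMI-8226-R, 12.1% ± 0.117 in RPMI-8226 and 86.2% ± 0.151 in the libraries labelled NCI-BL2171. The ratio of PIM2 to PIM1 was 22.6 and 21.3 in RPMI-8226-R, 5.47 and 5.58 in RPMI-8226 and 0.0903 and 0.0964 in the libraries labelled NCI-BL2171. Summed PIM transcript per length was 563 and 648 TPM in RPMI-8226-R and 1051 and 1020 TPM in RPMI-8226.

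Genes that STAT3 is known to switch on mostly fell in RPMI-8226-R against RPMI-8226. Of 25 tested, 4 rose, 18 fell and 3 did not pass, with a median log2 fold change of -0.75 beside -0.12 over all genes, and 37.2% of all genes tested fell. With limma on log2(TPM + 1) 4 rose and 16 fell. Many of these genes answer to other factors as well, so the count says nothing of STAT3 activity. BCL6, a repressor of the germinal centre, had 0.081 and 0.115 TPM in RPMI-8226-R, against 3.51 and 3.83 TPM in RPMI-8226, and fell 53.1-fold. FOS, an immediate early factor, had 1.63 and 3.28 TPM in RPMI-8226-R, against 62.8 and 71.9 TPM in RPMI-8226, and fell 35.2-fold (edgeR adjusted p = 5.53e-10). CEBPD fell 10.8-fold. MCL1, the survival protein on which myeloma cells lean, had 49.4 and 57.9 TPM in RPMI-8226-R, against 132 and 133 TPM in RPMI-8226, and fell 3.21-fold (log2 fold change -1.68 ± 0.07, edgeR adjusted p = 4.32e-15). MYC went the other way, with 576 and 639 TPM in RPMI-8226-R, against 97.9 and 99.5 TPM in RPMI-8226, a 4.82-fold rise (log2 fold change 2.27 ± 0.06, edgeR adjusted p = 2.97e-17). TNFRSF1A, a receptor of tumour necrosis factor, rose 3.61-fold and TIMP1 1.27-fold.

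Genes of proteins that PIM kinases phosphorylate moved both ways. Of 13 tested, 4 rose, 6 fell and 3 did not pass, with a median of -0.16, where 28.5% of all genes tested rose and 37.2% fell. With limma on log2(TPM + 1) 6 rose and 4 fell, with a median of 0.14. CDKN1A, the cell cycle inhibitor p21, averaged 29.3 ± 0.634 CPM in RPMI-8226-R and 140 ± 1.41 CPM in RPMI-8226 (SD, n = 2 each), and fell 4.77-fold. CDC25C and CXCR4 fell 2.80-fold and 2.77-fold. AKT1S1, the mTOR inhibitor PRAS40, had 31.0 and 34.9 TPM in RPMI-8226-R, against 10.1 and 8.98 TPM in RPMI-8226, and rose 2.74-fold. MAP3K5 and BAD, both promoters of cell death, rose 1.70-fold and 1.32-fold.

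**Figure D3:**
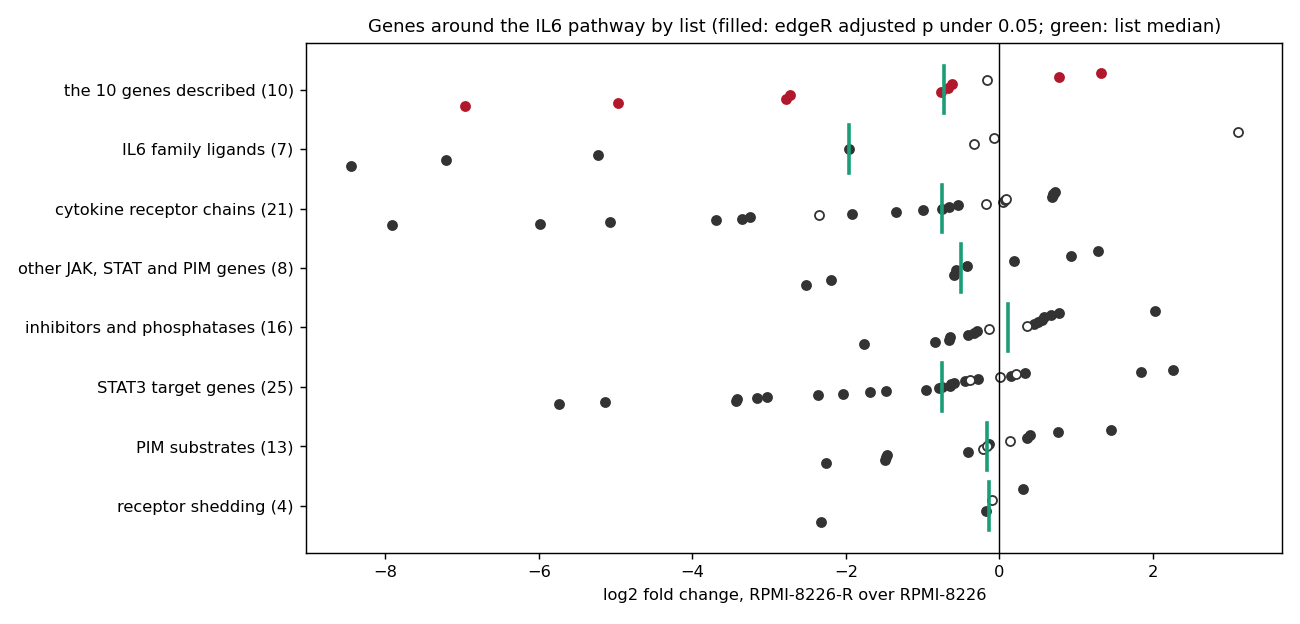
Log2 fold change of RPMI-8226-R over RPMI-8226 (x axis) for the 10 genes and 7 lists of related genes (rows, with the number tested), 1 point per gene, filled where the edgeR adjusted p is under 0.05, with a green bar at the list median. STAT3 target genes lie mostly left of 0 with a median of -0.75, and points below about -5 include genes with no read in RPMI-8226-R, whose fitted values are not bounds.

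Across all 94 other genes of the pathway that were tested, 23 rose, 54 fell and 17 did not pass, with a median of -0.43, beside 28.5% of all genes tested that rose and 37.2% that fell. With limma on log2(TPM + 1) 25 rose and 35 fell, with a median of -0.08. The balance of directions over the whole transcriptome depends on the scale: 43.4% of all edgeR calls were higher in RPMI-8226-R, against 60.7% of limma calls on log2(TPM + 1), with all-gene medians of -0.12 and 0.08. The members' directions did not depend on it: 2 rose and 7 fell on both scales.

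Set against the libraries labelled NCI-BL2171, both RPMI lines had far more IL6 receptor and less STAT3 and PIM1. These comparisons share libraries with each other and with the one above, so their values are given side by side and not as separate evidence. In RPMI-8226-R 3 members were higher and 6 lower, that is 9 of 10 called against a background of 77.4% of all genes (39.2% higher, 38.2% lower). In RPMI-8226 6 were higher and 3 lower, again 9 of 10, against 76.7% (41.1% higher, 35.6% lower). IL6R was 74.4-fold higher in RPMI-8226-R and 29.7-fold higher in RPMI-8226. IL6ST was 10.3-fold higher in RPMI-8226-R and 6.00-fold higher in RPMI-8226. STAT3 was 3.55-fold lower in RPMI-8226-R and 2.32-fold lower in RPMI-8226. JAK2 was 6.06-fold lower in RPMI-8226-R and 5.43-fold lower in RPMI-8226, and PIM1 34.7-fold lower in RPMI-8226-R and 5.05-fold lower in RPMI-8226. PIM2 was 7.12-fold higher in RPMI-8226-R and 12.1-fold higher in RPMI-8226. SOCS1 and JAK3 took opposite signs in the 2 lines: SOCS1 was 8.78-fold lower in RPMI-8226-R and 3.57-fold higher in RPMI-8226, while JAK3 was lower in RPMI-8226-R, by a count ratio of 27.5 (95% interval 9.07 to 136), and 4.93-fold higher in RPMI-8226. SOCS3 was 6.28-fold lower in RPMI-8226-R, whereas in RPMI-8226 its difference of 0.08 ± 0.13 on the log2 scale did not pass (edgeR adjusted p = 0.568). JAK1 did not pass in RPMI-8226-R (0.14 ± 0.07, edgeR adjusted p = 0.0822) and was 1.76-fold higher in RPMI-8226. The largest edgeR adjusted p among the members called in these comparisons was 5.26e-07, that of SOCS1 in RPMI-8226. Without NCI-BL2171 replicate 2 the JAK1 difference in RPMI-8226-R was 0.21 and passed.

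**Figure D4:**
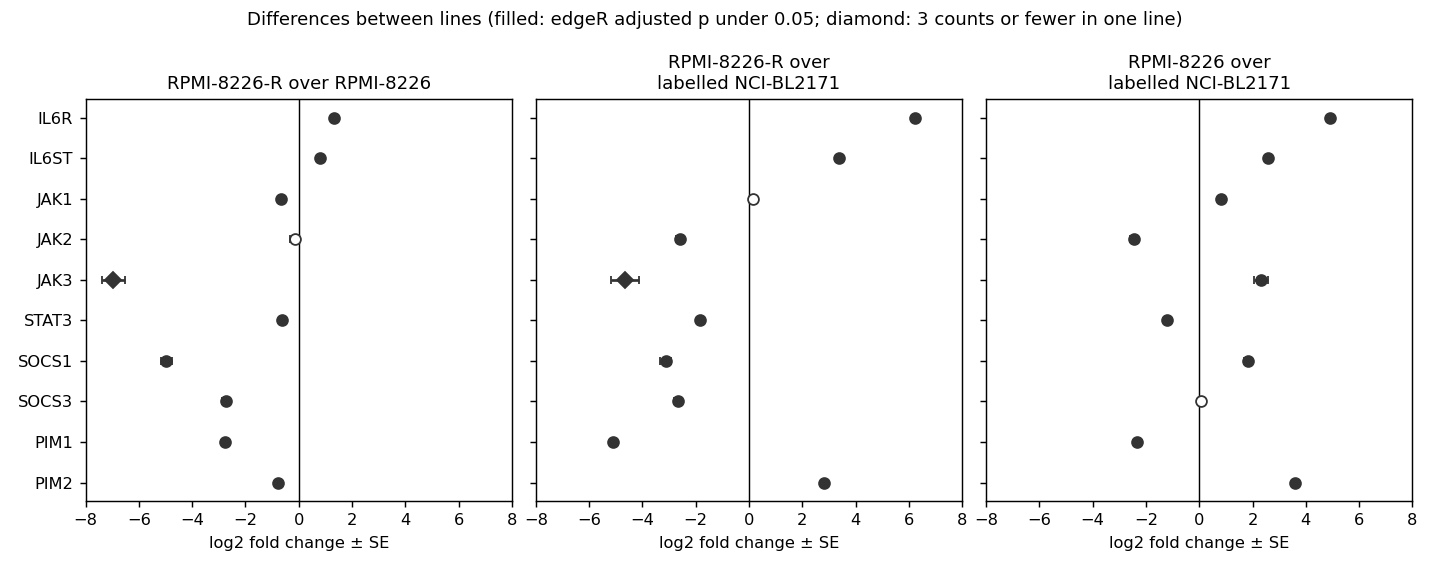
Log2 fold change ± SE (x axis) of each of the 10 genes (rows) for RPMI-8226-R over RPMI-8226, RPMI-8226-R over the libraries labelled NCI-BL2171 and RPMI-8226 over those libraries. Filled points have an edgeR adjusted p under 0.05, open ones do not, and diamonds mark JAK3, which had 3 reads in all in RPMI-8226-R.

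Other receptor and STAT genes were compared with the libraries labelled NCI-BL2171 in the same fit. Of the 21 receptor chains, 14 were higher and 6 lower in RPMI-8226-R, where 39.2% of all genes tested were higher and 38.2% lower. In RPMI-8226 17 were higher and 4 lower, where 41.1% of all genes tested were higher and 35.6% lower. LIFR, a partner chain of gp130, averaged 0.212 ± 0.0363 CPM in RPMI-8226 and 32.5 ± 1.24 CPM (SD, n = 2 each) in the libraries labelled NCI-BL2171, 151-fold lower in RPMI-8226. OSMR, another gp130 partner, was at least 77.2-fold lower in RPMI-8226-R. STAT5A, a factor of erythropoietin signalling, was 24.3-fold lower in RPMI-8226-R and 16.1-fold lower in RPMI-8226. STAT5B, its close relative, was 8.65-fold lower in RPMI-8226-R and 9.92-fold lower in RPMI-8226. STAT4 had no read in the libraries labelled NCI-BL2171 and was at least 69.3-fold higher in RPMI-8226-R and at least 36.2-fold higher in RPMI-8226. PTPN6 was 8.15-fold higher in RPMI-8226-R and 14.6-fold higher in RPMI-8226. MCL1 did not pass in RPMI-8226-R (log2 fold change -0.07, edgeR adjusted p = 0.316) and was 3.05-fold higher in RPMI-8226. MYC was 5.39-fold higher in RPMI-8226-R, while its 1.12-fold difference in RPMI-8226 was lost under 7 alternatives, on both TPM scales with the opposite sign. PIM3 was 1.12-fold lower in RPMI-8226-R (edgeR adjusted p = 0.0320), a call lost under 9 alternatives, on both TPM scales with the opposite sign, and 5.12-fold higher in RPMI-8226. How far the erythroid transcripts of these libraries bear on the JAK2, STAT5A, STAT5B and PIM1 values was not tested.

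The genes whose profile over the 6 libraries lay nearest to each member, by root mean square difference of centred log2(CPM + 1) among 10001 protein-coding genes, describe the same patterns. TBC1D30 lay nearest to IL6R (0.0807), FER to IL6ST (0.0557), CDCA5 to JAK1 (0.0452), MAPK15 to JAK2 (0.0512) and FAM98C to STAT3 (0.0368). NFIL3 lay nearest to JAK3 (0.166), IER3 to SOCS1 (0.202), SMIM14 to SOCS3 (0.109), COTL1 to PIM1 (0.0788) and TMCC2 to PIM2 (0.0692). IER3, an early response gene, had on average 5.28 TPM in RPMI-8226-R, 96.9 TPM in RPMI-8226 and 32.3 TPM in the libraries labelled NCI-BL2171. SYK, the B cell receptor kinase and the second nearest gene to PIM2, had 2.86 TPM in RPMI-8226-R, 6.64 TPM in RPMI-8226 and 0.587 TPM in the libraries labelled NCI-BL2171. SOCS1 and JAK3 had the least close neighbours. On the chromosome, the neighbours of JAK2 were divided in RPMI-8226-R against RPMI-8226. Of 6, 2 rose and 2 fell, where 28.5% of all genes tested rose and 37.2% fell. CD274 (PD-L1) fell by 1.26 on the log2 scale. PDCD1LG2 (PD-L2) rose by a fitted 3.33, a size that rests on very few reads. Its mean in RPMI-8226 was 0.644 times the level of 3 counts in a library labelled NCI-BL2171.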

How the data were processed

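RNA-seq was measured in 6 libraries of 3 lines. For every library the authors deposited the estimated count of reads per gene, which need not be whole and was rounded here, its TPM (scaled for length and depth, per the file headers) and its length. Lengths in bases, another deposited unit, vary between libraries and served only for an offset and for checks. The submitters' processing notes name GRCh38.p13 as the build. Quantifier, annotation and use of strand: not given in the sources used here.

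Each table had 61544 genes, and 46 pseudoautosomal Y copies were added to X. The test was edgeR 4.0.16 under R 4.3.3, with TMM scaling, filterByExpr by line (count of at least 10, total of at least 15) and a robust quasi-likelihood fit of line to the 6 libraries, leaving 3 residual degrees of freedom. Two-sided p-values were adjusted by Benjamini-Hochberg over 20081 genes and called at 0.05. CPM values are TMM-normalised. Floors of 3 counts and 95% intervals cover counting error only. The procedure was tested on simulated data. Alternatives were DESeq2 1.42.0 size factors and Wald test, no filter, an effective-length offset, only the 4 libraries compared, a replicate block, limma 3.58.1 on log2(TPM + 1) and log2(TPM + 0.1), and leaving out each library.

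The members and lists were chosen with earlier results of these data known. Besides the members, the rule names up to 3 rises and 3 falls per list between the RPMI lines and up to 2 each way in the other comparisons, by size, with IL6, PIM3, TYK2, STAT5A, STAT5B, PTPN6, MCL1 and MYC always, the 2 genes of nearest profile, and the 3 nearest tested protein-coding genes on each side. Some of its results are not reported here. Of the list genes, 11 were too low to test.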

Additional observations from a re-analysis of the deposited data

How the results depend on the processing

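Each member's log2 fold change was recomputed under 14 alternative settings, which gave 420 values over the 3 comparisons. Of these, 419 kept the direction and the side of the threshold of the value reported, or stayed below the threshold throughout, and 1 gained a call, that of JAK1 in RPMI-8226-R against the libraries labelled NCI-BL2171, at 0.21 without NCI-BL2171 replicate 2. Sign differed in 6 values, all of differences that never passed (JAK2 between the RPMI lines and SOCS3 between RPMI-8226 and the libraries labelled NCI-BL2171). In RPMI-8226-R against RPMI-8226, 9 members were called under each setting, and of the 94 other list genes 59 to 79 were called, against 77 reported. Leaving out 1 library at a time gave 11600 to 13192 genes called there, against 13177 reported, 14435 to 15683 against 15540 for RPMI-8226-R over the libraries labelled NCI-BL2171, and 14396 to 16281 against 15401 for RPMI-8226 over them. With a replicate block the 3 counts were 13045, 15426 and 15295, and the block changed no call of a member. Libraries with the same number correlated at 0.0615 to 0.113 in their deviations from the line means, and the labels do not say that the numbers pair them, so they share only a number. Depth limits the low genes most: JAK2 had 97 to 140 reads in the RPMI libraries and an SE of 0.18, against 0.06 for PIM2.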
